A study of Mus musculus with 26 samples.

Results

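The genes described here are 36 autophagy genes of the mouse, 5 receptors that carry cargo into autophagosomes (Sqstm1, Optn, Nbr1, Calcoco1 and Tax1bp1) and 31 genes of the core machinery that builds them. They were taken from 52636 genes in the count files by matching a list of symbols to Ensembl identifiers, and all 36 passed the filter on low counts. RNA sequencing was done on polyA RNA of microglia, the resident macrophages of the brain, from mice that lacked or had reduced Grn, which encodes the lysosomal protein progranulin, and Tmem106b, which encodes a lysosomal membrane protein. The study asked whether lowering Tmem106b changed the effect of Grn deficiency. There were 26 libraries in 7 genotype groups. With Tmem106b WT there were 3 Grn WT, 5 Grn HET (heterozygous) and 4 Grn KO (knockout) libraries. With Tmem106b HET there were 4 Grn WT, 3 Grn HET and 3 Grn KO libraries, and the seventh group was 4 Tmem106b KO libraries with Grn WT. The labels gave the sex and a dissection type, Entire or Hemi, which they did not explain, and gave no age, isolation method, allele design or animal identity. As nothing stated that the libraries came from separate animals, p-values measure only the spread between these libraries. In bulk RNA of this kind, fewer cells of a type and less RNA per cell cannot be told apart.

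Autophagy delivers cytoplasmic material to the lysosome. The ULK1 kinase complex and the class III PI3 kinase complex start a membrane sheet, ATG9, ATG2 and WIPI proteins supply and shape it, and a ubiquitin-like conjugation system attaches ATG8 proteins (the LC3 and GABARAP families) to the lipid of the membrane. Receptors such as p62 (Sqstm1) and optineurin (Optn) bind ubiquitinated cargo on one side and ATG8 on the other, and are themselves degraded with the cargo. In microglia the pathway handles damaged lysosomes, aggregates and engulfed material.

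Counts assigned to genes ranged from 37.56 M to 63.71 M per library. Grn stood at 3345 ± 906 CPM (counts scaled to library size with TMM factors; SD, n = 3) in Tmem106b WT Grn WT. The Grn HET libraries of that background had 1414 ± 427 CPM (n = 5), the Grn KO libraries had 4.84 ± 7.58 (n = 4), and Grn stood at most at 8.04 CPM when Grn KO was joined with Tmem106b HET. Tmem106b stood at 28.2 ± 5.13 CPM (n = 4) in Tmem106b KO libraries against 77.6 ± 10.1 (n = 3) in Tmem106b WT Grn WT. The microglia markers (10 genes, among them Csf1r and Tmem119) summed to between 9194 and 55792 CPM. The libraries also held RNA of other brain cells. The neuron markers (12 genes, led by Snap25, Stmn3 and Syp) summed to between 67.6 and 9929 CPM, with the highest sums in Tmem106b KO replicate 2 (9929), Tmem106b HET Grn KO replicate 3 (9334) and Tmem106b WT Grn HET replicate 2 (3816). The oligodendrocyte markers (8 genes, among them Mbp and Cnp) summed to between 546 and 25624 CPM.

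In the libraries with both genes intact, Sqstm1 was the most abundant of the 36 genes per length of transcript, at 155 ± 12.4 RPKM (the authors' RPKM, which divides reads by gene length and library size; SD, n = 3). It was followed by the ATG8 genes Gabarap (129.8 ± 15.8 RPKM), Map1lc3a (70.6 ± 17.9) and Gabarapl1 (69.5 ± 42.4), and by the receptor Tax1bp1 (56.7 ± 4.99). Sqstm1 and Gabarap overlapped in their spread, as did Map1lc3a, Gabarapl1 and Tax1bp1. The place of Gabarapl1 above Tax1bp1 rested on replicate 2, with 118 RPKM of Gabarapl1 against 49.1 and 41.2 in replicates 1 and 3. Replicate 2 was Hemi and had a neuron marker sum of 1743 CPM, against 126 and 155. The receptors did not share a level. Nbr1 stood at 32.3 ± 6.60 RPKM, Calcoco1 at 11.5 ± 2.59 and Optn at 4.43 ± 1.45, which put Optn at rank 30 of 36. The lowest gene was Epg5, a tether between autophagosome and lysosome, at 0.809 ± 0.212 RPKM.

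Loss of Grn was compared with Grn WT in each Tmem106b background and as the average of both, in edgeR with sex and dissection as covariates, and a gene passed at a Benjamini-Hochberg adjusted p under 0.05 over all 21371 genes tested. With Tmem106b WT, 1 of the 36 genes rose (Optn) and 0 fell, where 0.426% of all genes rose and 0.15% fell. At an unadjusted p under 0.05 stood 7 members and 2647 of the 21371 genes tested. With Tmem106b HET, 5 members rose (Sqstm1, Optn, Map1lc3a, Gabarapl1 and Gabarapl2) and 2 fell (Ulk2 and Atg4c), against 8.42% and 6.05% of all genes. On the average of both backgrounds 8 members rose (Sqstm1, Optn, Atg7 and all 5 ATG8 genes) and 2 fell (Ulk2 and Uvrag), against 10.7% and 7.38% of all genes. The list as a whole did not move one way. Its median log2 fold change was -0.05 with Tmem106b WT, 0.01 with Tmem106b HET and -0.04 on average, beside 0.10, -0.02 and 0.06 over all genes tested. The 5 ATG8 genes had medians of 0.55, 0.83 and 0.68, with 5 of 5 above 0 each time. Of the 21371 genes tested, 11889, 10535 and 11245 were above 0. The averaged comparison reuses the libraries of the other two and is not a further test of them. One-sided signs of the ATG8 genes also occurred where 0 of them passed. For Grn HET versus WT 5 of 5 were above 0 with Tmem106b HET (median 0.29) and 3 of 5 with Tmem106b WT (0.06). For Tmem106b HET versus WT with Grn WT it was 0 of 5 (-0.18). The counts of Grn KO calls rested on few libraries and on the covariates. With Tmem106b WT the count was 0 without Grn KO replicate 1 or 4 or any Grn WT library, and 2 without Grn KO replicate 2. With Tmem106b HET it was 3 or 4 without Grn KO replicate 1, 2 or 3 or Grn WT replicate 1 or 4, and on average 5 without Tmem106b WT Grn WT replicate 2 and 6 without Tmem106b HET Grn KO replicate 3. With no covariates 0, 0 and 5 members passed.

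**Figure D1:**
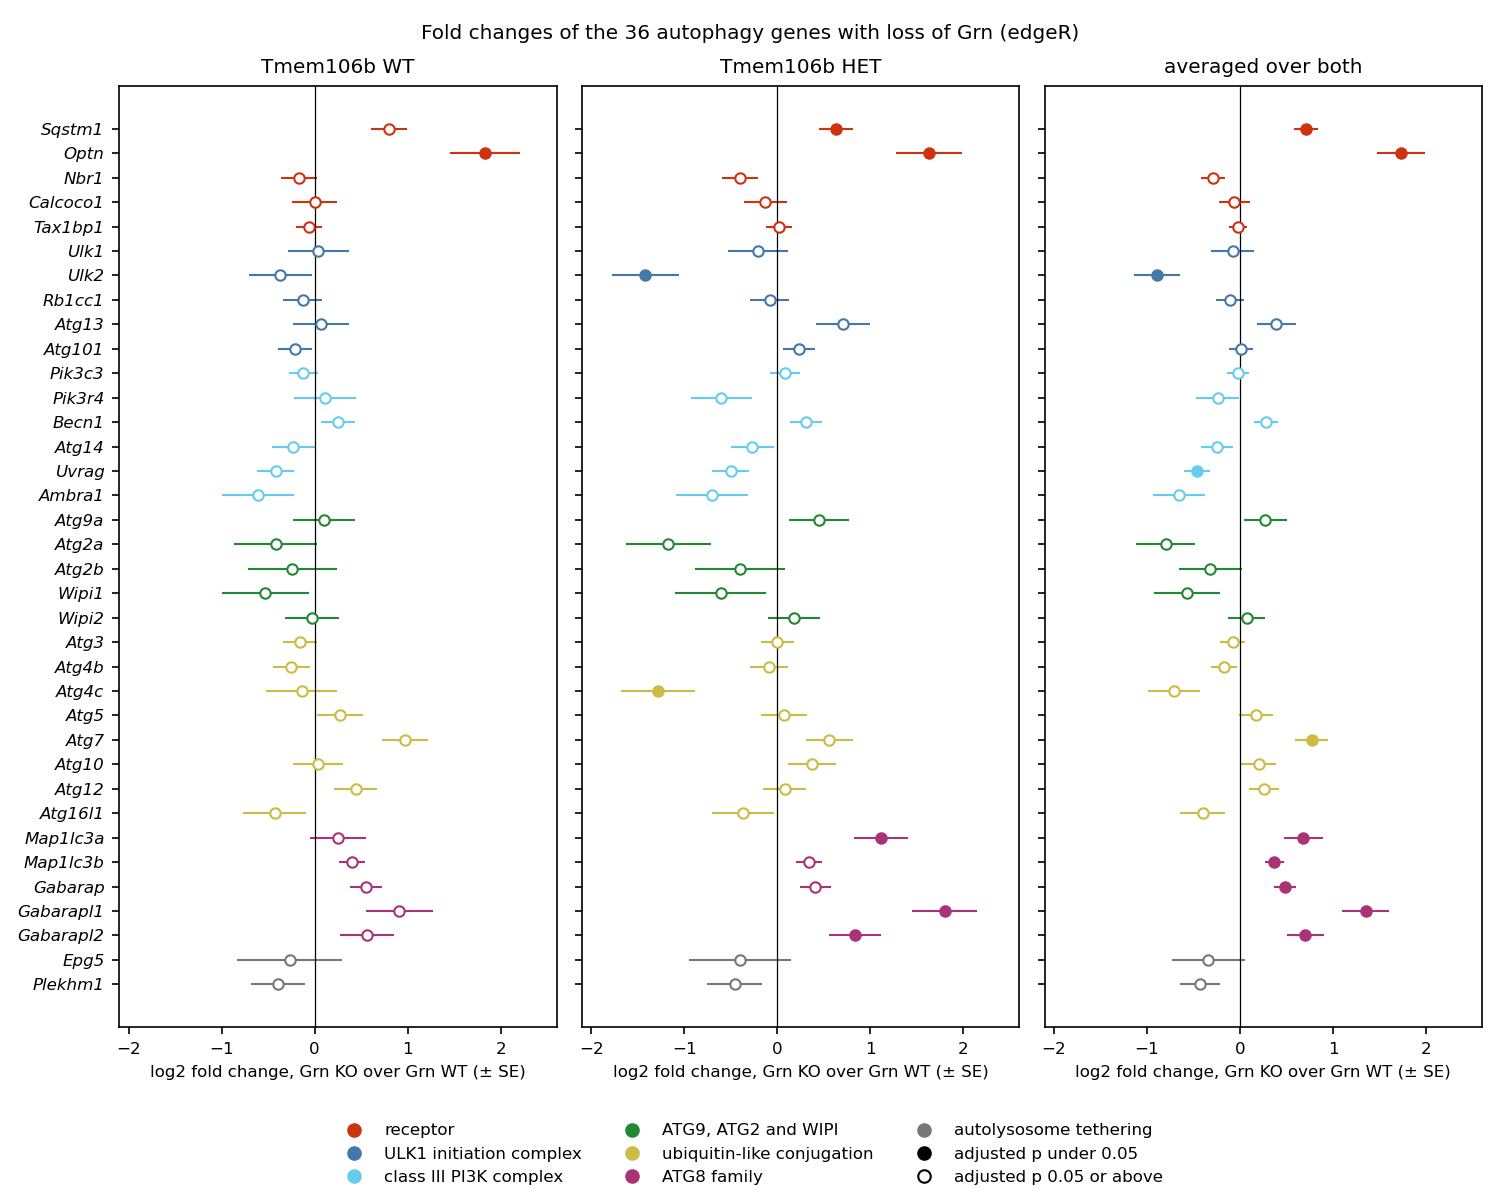
Log2 fold change of Grn KO over Grn WT with its SE for the 36 genes, coloured by role, with Tmem106b WT, with Tmem106b HET and averaged, filled where the adjusted p was under 0.05. Optn and Sqstm1 lie right of 0 in all 3 panels, and so do all 5 ATG8 genes. Calcoco1 and Tax1bp1 lie near 0. Nbr1 lies left of 0 (-0.17, -0.40 and -0.29) and is not filled.

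Sqstm1 encodes p62, the receptor that gathers ubiquitinated proteins into condensates (chromosome 11, GRCm38, 50199366 to 50210827, minus strand). With Tmem106b WT its level was 545, 520.3 and 527 CPM across Grn WT libraries and 864, 757, 974 and 1070.4 CPM across Grn KO libraries. With Tmem106b HET the Grn WT libraries had 479, 598, 667 and 545 CPM and the Grn KO libraries 919, 861 and 827 CPM. Every Grn KO library lay above every Grn WT library of its background. The difference was 1.74-fold with Tmem106b WT (log2 fold change 0.80 ± 0.19, SE, adjusted p = 0.057), which did not pass, and 1.55-fold with Tmem106b HET (log2 fold change 0.63 ± 0.18, SE, adjusted p = 0.024), which did. On average Sqstm1 rose 1.64-fold (log2 fold change 0.71 ± 0.13, SE, adjusted p = 0.0012). The Grn HET libraries had 523, 647, 511, 505 and 555 CPM with Tmem106b WT and 674, 596 and 535 CPM with Tmem106b HET, and the Tmem106b KO libraries 649, 984, 562 and 584 CPM. Outside Grn KO, the highest value was the 984 CPM of Tmem106b KO replicate 2. The call with Tmem106b HET was lost without any of 4 libraries (Grn KO replicate 1 or 2, Grn WT replicate 1 or 4, adjusted p 0.052 to 0.071), and with Tmem106b WT a call was gained without Grn KO replicate 2 (adjusted p = 0.015). The antisense gene Mrnip overlaps Sqstm1, and strand was not given in the sources used here.

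Optn encodes optineurin, a receptor for damaged mitochondria, bacteria and aggregates that is activated by the kinase TBK1 (chromosome 2, 5020642 to 5064051, minus strand). The Grn WT libraries with Tmem106b WT had 11.4, 17.4 and 12.7 CPM and the Grn KO libraries 51, 48.1, 44.8 and 46.2 CPM. In the Tmem106b HET background Grn WT had 16.5, 10.2, 22.8 and 16.7 CPM and Grn KO 50.1, 47.1 and 39.6 CPM. All 7 Grn KO libraries lay above all 7 Grn WT libraries of these backgrounds. The rise was 3.56-fold with Tmem106b WT (log2 fold change 1.83 ± 0.38, SE, adjusted p = 0.024), 3.09-fold with Tmem106b HET (log2 fold change 1.63 ± 0.35, SE, adjusted p = 0.0066) and 3.32-fold on average (log2 fold change 1.73 ± 0.26, SE, adjusted p = 0.00035). Grn HET libraries had 13.5, 49.5, 9.76, 14.2 and 20.6 CPM with Tmem106b WT and 14.8, 27.7 and 33.2 CPM with Tmem106b HET, and Tmem106b KO libraries had 18.8, 35.3, 21.2 and 18.3 CPM. Tmem106b WT Grn HET replicate 2, at 49.5 CPM, lay in the Grn KO range, and Tmem106b KO replicate 2 (35.3 CPM) and Tmem106b HET Grn HET replicate 3 (33.2 CPM) came nearest to it. The first pair were among the 3 libraries with the highest neuron marker sums, while Tmem106b HET Grn HET replicate 3 had a sum of 142 CPM. The other neuron-rich library, Tmem106b HET Grn KO replicate 3, had the lowest Optn of its group (39.6 CPM). With Tmem106b WT the Optn call was lost without Grn KO replicate 1 or 4 or without any of the 3 Grn WT libraries (adjusted p 0.055 to 0.30). With Tmem106b HET it remained whichever library was left out. There it was lost with no covariates (1.46 ± 0.41, adjusted p = 0.075), with sex as the only covariate (1.47 ± 0.43, adjusted p = 0.077) and with neuron and oligodendrocyte marker sums as covariates (log2 fold change 0.82 ± 0.47, adjusted p = 0.63). The antisense gene 4930551O13Rik overlaps Optn.

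The other receptors did not pass in any Grn KO comparison. Nbr1, which works with p62 at ubiquitin condensates, had 257, 188 and 170 CPM in Grn WT and 197, 179, 153 and 171 CPM in Grn KO with Tmem106b WT. In the Tmem106b HET background the values were 245, 188, 247 and 206 CPM in Grn WT and 134, 176 and 191 CPM in Grn KO. The ranges overlapped in both backgrounds, and the averaged log2 fold change was -0.29 ± 0.13 (SE, edgeR adjusted p = 0.15). Remaining Nbr1 values were 211, 177, 199, 198 and 179 CPM in Grn HET with Tmem106b WT, 213, 189 and 191 CPM in Grn HET with Tmem106b HET, and 135, 118, 126 and 214 CPM in Tmem106b KO. Calcoco1, a receptor for the endoplasmic reticulum and Golgi, had 68.4, 47.3 and 43.6 CPM in Grn WT and 49.2, 49.6, 46.7 and 56.4 CPM in Grn KO with Tmem106b WT, and 49, 55.4, 39.4 and 53.1 CPM in Grn WT and 44.3, 47.2 and 43.5 CPM in Grn KO with Tmem106b HET. Its averaged log2 fold change was -0.06 ± 0.17 (adjusted p = 0.84), with values on both sides in each background. The Calcoco1 values of the other groups were 53.8, 31.4, 80, 56.6 and 72.5 CPM (Grn HET, Tmem106b WT), 48.9, 47.4 and 45.2 CPM (Grn HET, Tmem106b HET) and 31.7, 45.2, 50 and 61 CPM (Tmem106b KO). Tax1bp1, which brings the early machinery to NBR1 condensates, was the steadiest receptor by its SE. Its libraries read 236, 222 and 219.6 CPM in Grn WT and 238, 180.1, 230.1 and 213 CPM in Grn KO with Tmem106b WT, and 220.3, 195, 176 and 225 CPM in Grn WT and 224, 185 and 211 CPM in Grn KO with Tmem106b HET. The groups overlapped, with an averaged log2 fold change of -0.02 ± 0.10 (adjusted p = 0.92). Tax1bp1 had 211, 269, 217, 205 and 227 CPM and 253, 219 and 242 CPM in the Grn HET groups with Tmem106b WT and HET, and 229, 191, 189.6 and 228 CPM in Tmem106b KO. The signs of Calcoco1 and Tax1bp1 changed with the settings, so neither is given a direction.

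**Figure D2:**
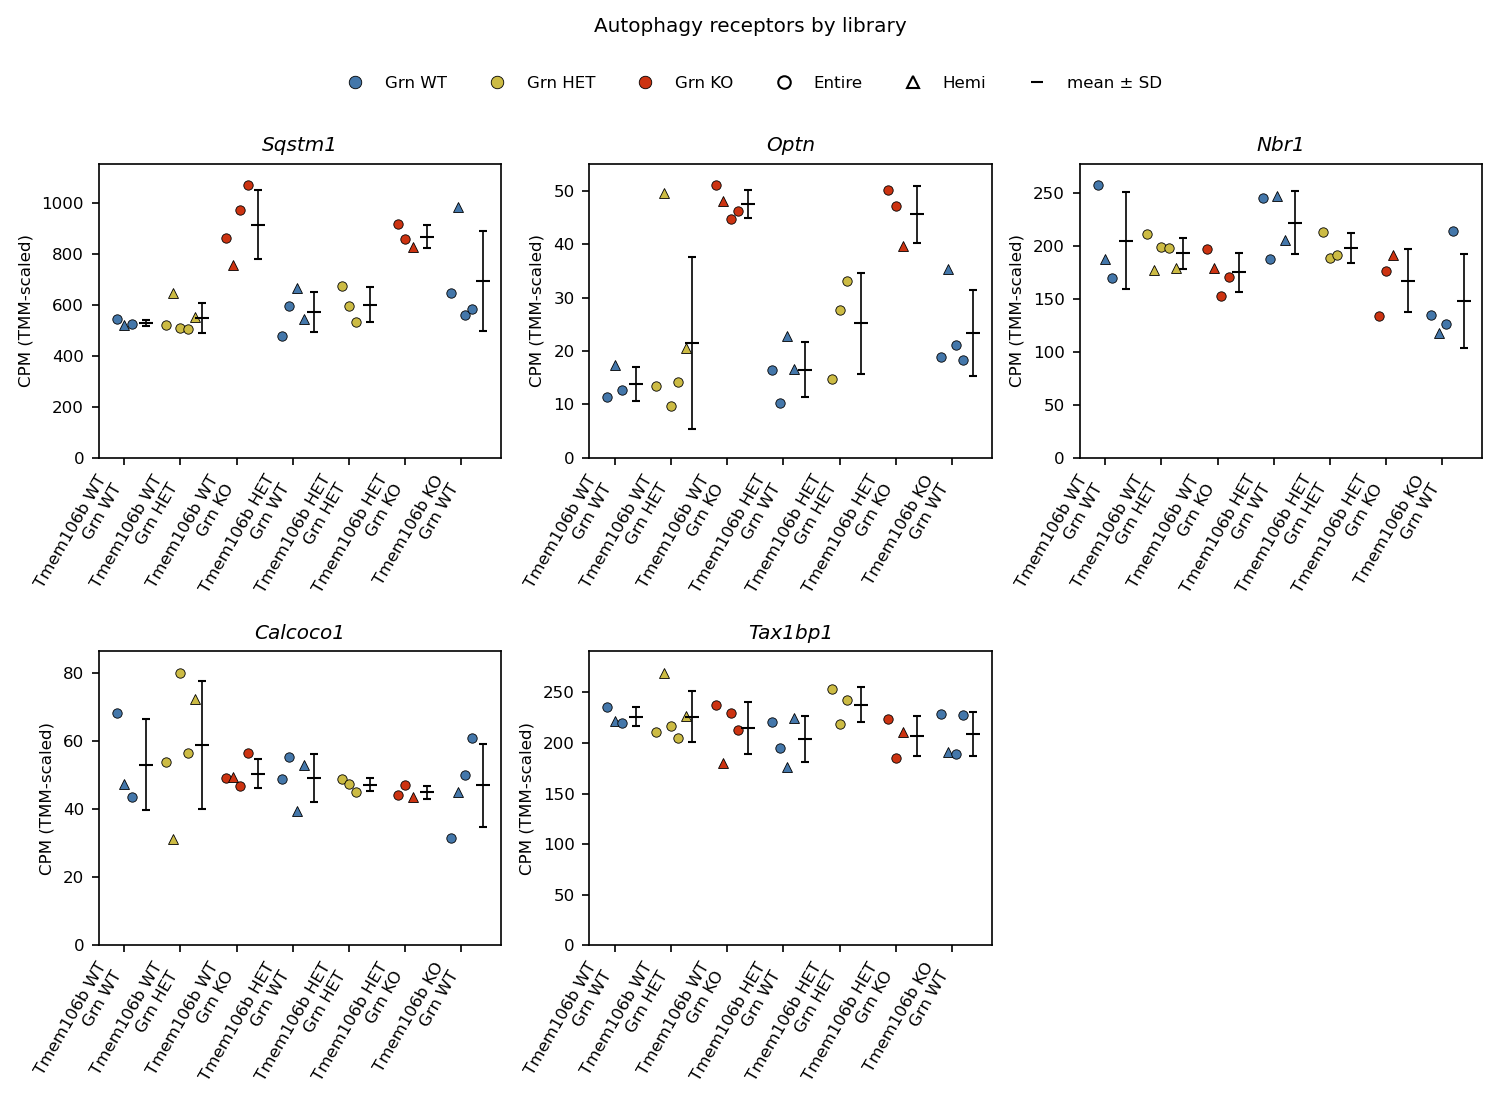
CPM of the 5 receptors in each of the 26 libraries by genotype group (circles Entire, triangles Hemi), with mean and SD. Sqstm1 and Optn are higher in every Grn KO library than in the Grn WT libraries of the same background, and the other receptors overlap.

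The balance between receptors shifted with Sqstm1. The ratio of Sqstm1 to Nbr1 CPM was 2.12, 2.76 and 3.10 in Tmem106b WT Grn WT libraries and 4.38, 4.22, 6.37 and 6.26 in the Grn KO libraries of that background. With Tmem106b HET it was 1.95, 3.18, 2.69 and 2.64 in Grn WT and 6.86, 4.88 and 4.33 in Grn KO, so that no Grn KO library overlapped Grn WT in either background. Tmem106b KO libraries, with Grn WT, had 4.79, 8.32, 4.47 and 2.73, and Grn HET libraries 2.48 to 3.65. Sqstm1 alone made up 48.7 to 54.2% of the summed receptor CPM in Tmem106b WT Grn WT libraries and 61.7 to 68.7% in the Grn KO libraries of that background. A ratio formed on that sum therefore partly restates Sqstm1. The sum of the 5 receptors over the sum of the 31 core genes, both in CPM, was 0.476, 0.450 and 0.467 in Tmem106b WT Grn WT and 0.575, 0.527, 0.617 and 0.627 in its Grn KO libraries. In the Tmem106b HET background this ratio overlapped, with 0.484, 0.461, 0.532 and 0.468 in Grn WT and 0.598, 0.536 and 0.459 in Grn KO. Other groups reached the Grn KO range of Tmem106b WT, with up to 0.550 in Tmem106b HET Grn HET and 0.545 in Tmem106b KO. Tmem106b WT Grn HET, at 0.442 to 0.516, stayed below it. The lowest Grn KO value, 0.459, was Tmem106b HET replicate 3, the library with 9334 CPM of neuron markers, where the core sum was 2859 CPM against 2294 and 2457 in replicates 1 and 2. No test was run on these sums, which were formed over chosen genes.

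All 5 ATG8 genes rose on the average of both backgrounds. They encode the small proteins that are bound to the autophagosome membrane and that receptors recognise. Map1lc3b, the usual marker LC3B, had 206, 185 and 205 CPM in Grn WT and 243, 238, 282 and 289 CPM in Grn KO with Tmem106b WT, where the groups did not overlap. In the Tmem106b HET background it had 165, 194, 225 and 193 CPM in Grn WT and 259, 222 and 254 CPM in Grn KO, which overlapped by the 225 CPM of Grn WT replicate 3. It rose 1.29-fold on average (log2 fold change 0.37 ± 0.10, SE, adjusted p = 0.013), and passed in neither background alone (adjusted p 0.23 and 0.10). The other groups were 174, 184, 169, 194 and 172 CPM and 207, 195 and 181 CPM in Grn HET with Tmem106b WT and HET, and 235, 213, 199 and 171 CPM in Tmem106b KO. Leaving out replicate 2 of Tmem106b WT Grn WT ended its averaged call (adjusted p = 0.083). Map1lc3b shares its locus with Gm20388 on the same strand and Zcchc14 on the other.

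Gabarap had 223, 169 and 253 CPM in Grn WT and 313, 256, 333 and 351 CPM in Grn KO with Tmem106b WT, with the lowest Grn KO library just above the highest Grn WT library. Tmem106b HET libraries had 170.1, 182, 186 and 166 CPM in Grn WT and 329, 245 and 172 CPM in Grn KO. Grn KO replicate 3, at 172 CPM, fell among the Grn WT libraries, and the other Grn KO libraries lay above them. Gabarap rose 1.40-fold on average (log2 fold change 0.48 ± 0.12, SE, adjusted p = 0.011) but in neither background alone (adjusted p 0.18 and 0.11). The remaining libraries had 182, 169, 187, 207 and 178 CPM (Grn HET, Tmem106b WT), 211, 178 and 242 CPM (Grn HET, Tmem106b HET) and 234, 123, 222 and 210.5 CPM (Tmem106b KO). The 123 CPM of Tmem106b KO replicate 2 was the lowest Gabarap value of all libraries.

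Gabarapl1 had the largest averaged log2 fold change of the core genes. Its Grn WT and Grn KO libraries had 114, 235 and 96.3 CPM and 216, 204, 188 and 245 CPM with Tmem106b WT, and 91.8, 79.4, 204 and 173 CPM and 202, 332 and 749 CPM with Tmem106b HET. The groups overlapped in both backgrounds, and the 749 CPM of Grn KO replicate 3 stood far above its group. It rose 3.49-fold with Tmem106b HET (log2 fold change 1.80 ± 0.35, SE, adjusted p = 0.0039) and 2.56-fold on average (log2 fold change 1.35 ± 0.25, SE, adjusted p = 0.0015), and with Tmem106b WT the log2 fold change was 0.91 ± 0.36 (adjusted p = 0.30). The Grn HET libraries had 115, 422, 87.1, 131 and 211 CPM with Tmem106b WT and 102, 86.9 and 116 CPM with Tmem106b HET, and the Tmem106b KO libraries 110.4, 791, 206 and 136 CPM. The 3 highest libraries for Gabarapl1 (791, 749 and 422 CPM) were those with the highest neuron marker sums. Gm44243 overlaps Gabarapl1 on the same strand and 1700101I11Rik on the other.

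Map1lc3a and Gabarapl2 followed the same libraries. Map1lc3a (LC3A) had 71.5, 101 and 112 CPM in Grn WT and 83.9, 90.8, 103 and 122 CPM in Grn KO with Tmem106b WT, and 56.4, 48.5, 115 and 64.4 CPM in Grn WT and 107, 114 and 194 CPM in Grn KO with Tmem106b HET. It overlapped in both backgrounds, through 1 Grn WT library (115 CPM) in the second. It rose 2.16-fold with Tmem106b HET (log2 fold change 1.11 ± 0.29, SE, adjusted p = 0.015) and 1.60-fold on average (log2 fold change 0.68 ± 0.21, SE, adjusted p = 0.032). Other Map1lc3a values were 64.4, 151, 66.9, 91.4 and 145 CPM and 70.6, 71.4 and 80.7 CPM in the Grn HET groups with Tmem106b WT and HET, and 78.4, 270, 87.1 and 70.9 CPM in Tmem106b KO. The call with Tmem106b HET was lost without Grn KO replicate 2 or 3 or Grn WT replicate 4 (adjusted p 0.05 to 0.057). The averaged call ended when any of 5 libraries was left out, namely replicate 2 or 3 of Tmem106b HET Grn KO, replicate 4 of Tmem106b WT Grn KO, and replicate 1 or 2 of Tmem106b WT Grn WT (adjusted p 0.052 to 0.15). Gabarapl2 was low throughout, with 8.79, 9.99 and 7.19 CPM in Grn WT and 9.78, 12.7, 13.7 and 11.7 CPM in Grn KO with Tmem106b WT. For Tmem106b HET it had 7.90, 6.25, 13.1 and 9.18 CPM in Grn WT and 11.4, 12.8 and 21.4 CPM in Grn KO, and the groups overlapped in both backgrounds. It rose 1.78-fold with Tmem106b HET (log2 fold change 0.83 ± 0.28, SE, adjusted p = 0.047), a call lost without any 1 of the 7 libraries compared, and 1.62-fold on average (log2 fold change 0.70 ± 0.20, SE, adjusted p = 0.022). Leaving out replicate 3 of Tmem106b HET Grn KO or replicate 2 of Tmem106b WT Grn WT ended the averaged call (adjusted p 0.071 and 0.10). The remaining Gabarapl2 libraries had 8.51, 15.2, 7.85, 11.8 and 11.3 CPM and 9.02, 8.29 and 11.2 CPM in Grn HET with Tmem106b WT and HET, and 11, 26.6, 11.8 and 8.58 CPM in Tmem106b KO. The ATG8 genes are close paralogs, and how the counting treated reads shared between copies was not given in the sources used here, so the split of reads among them is uncertain.

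Of the 8 conjugation genes, Atg7 rose on average. It encodes the E1-like enzyme that activates both ATG8 and ATG12. Atg7 had 49.1, 47.7 and 47.3 CPM in Grn WT and 101, 84.6, 91.8 and 100.5 CPM in Grn KO with Tmem106b WT, where every Grn KO library was higher. With Tmem106b HET the Grn WT libraries had 47.6, 49.2, 68.2 and 49.5 CPM and the Grn KO libraries 94.5, 91.7 and 61.3 CPM, overlapping through Grn WT replicate 3 and Grn KO replicate 3. Grn WT replicate 3, which also gave the overlaps of Map1lc3a, Map1lc3b and Uvrag in this background, had the highest oligodendrocyte, astrocyte, endothelial and erythrocyte marker sums of all libraries (25624, 1325, 547 and 438 CPM), and their part in its values was not tested. The difference was 1.96-fold (log2 fold change 0.97 ± 0.25, SE, adjusted p = 0.093) and 1.47-fold (log2 fold change 0.56 ± 0.25, SE, adjusted p = 0.14), neither of which passed, and the averaged rise was 1.70-fold (log2 fold change 0.77 ± 0.18, SE, adjusted p = 0.0064). It passed whichever library was left out. Grn HET libraries had 60.3, 23.9, 34.7, 52.2 and 44.8 CPM with Tmem106b WT and 53.9, 35.2 and 36 CPM with Tmem106b HET, all below every Grn KO library, and Tmem106b KO libraries had 51.3, 30.7, 37.3 and 49.9 CPM.

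Atg4c, a protease that trims ATG8 precursors, fell 2.43-fold with Tmem106b HET (log2 fold change -1.28 ± 0.40, SE, adjusted p = 0.038). The Grn WT libraries had 21.6, 10.7, 19.7 and 12.1 CPM and the Grn KO libraries 9.25, 10.7 and 2.44 CPM, which met at 10.7 CPM. The call was lost without Grn KO replicate 1 or 3 or Grn WT replicate 1, 3 or 4 (adjusted p 0.057 to 0.25). With Tmem106b WT the values were 20.3, 9.87 and 9.19 CPM in Grn WT and 16.6, 8.77, 11.4 and 11.1 CPM in Grn KO, which overlapped (log2 fold change -0.14 ± 0.38, adjusted p = 0.93). Grn HET had 12.5, 8.23, 14.6, 12.7 and 12.3 CPM and 13.8, 16.2 and 13.5 CPM with Tmem106b WT and HET, and Tmem106b KO had 10.8, 9.38, 7.89 and 13.3 CPM. The other 6 conjugation genes did not pass. Of them Atg16l1, Atg12 and Atg4b had the smallest p, with averaged log2 fold changes of -0.40 ± 0.24, 0.26 ± 0.16 and -0.17 ± 0.14 (SE, adjusted p 0.26, 0.30 and 0.43).

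The ULK1 complex, which starts autophagy, had 1 member that passed. Ulk2, a kinase related to Ulk1, had 263, 187 and 199 CPM in Grn WT and 197, 191, 141 and 143 CPM in Grn KO with Tmem106b WT, which overlapped. In Tmem106b HET libraries it had 239, 253, 189 and 262 CPM in Grn WT and 117, 151 and 42.2 CPM in Grn KO, where all Grn KO libraries were lower. Ulk2 fell 2.68-fold with Tmem106b HET (log2 fold change -1.42 ± 0.36, SE, adjusted p = 0.015) and 1.86-fold on average (log2 fold change -0.89 ± 0.25, SE, adjusted p = 0.019), and with Tmem106b WT its log2 fold change was -0.37 ± 0.34 (adjusted p = 0.72). Without Grn KO replicate 3 of the Tmem106b HET group, at 42.2 CPM, neither call held (adjusted p 0.13 and 0.091), and leaving out replicate 2 of Tmem106b WT Grn WT ended the averaged call (adjusted p = 0.097). Ulk2 in the other groups was 255, 81.5, 247, 213 and 163 CPM and 222, 301 and 249 CPM (Grn HET with Tmem106b WT and HET) and 111, 60.3, 134 and 217 CPM (Tmem106b KO). Ulk1 itself, the scaffold Rb1cc1, Atg13 and Atg101 did not pass. Atg13 had the smallest p of these, at an averaged log2 fold change of 0.39 ± 0.21 (adjusted p = 0.21).

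In the class III PI3 kinase complex Uvrag fell on average. It marks the form of the complex that acts in endosome and autophagosome maturation. Uvrag had 113, 92.2 and 101 CPM in Grn WT and 84.1, 76.4, 83.7 and 80.1 CPM in Grn KO with Tmem106b WT, where all Grn KO libraries were lower. Among Tmem106b HET libraries it had 99.8, 120.1, 56.2 and 97.6 CPM in Grn WT and 78, 77.3 and 55.6 CPM in Grn KO, overlapping through Grn WT replicate 3. The averaged fall was 1.37-fold (log2 fold change -0.46 ± 0.14, SE, adjusted p = 0.029), and neither background passed alone (adjusted p 0.39 and 0.099). This call was lost without any of 11 of the 14 libraries compared, every one but Tmem106b HET Grn WT replicates 1 and 3 and Tmem106b WT Grn KO replicate 2 (adjusted p 0.051 to 0.088). The other libraries had 130.1, 82.5, 105, 90.6 and 84.8 CPM and 115, 148 and 104 CPM (Grn HET with Tmem106b WT and HET) and 93.9, 43.7, 68.6 and 102 CPM (Tmem106b KO). The lipid kinase Pik3c3 and its partners Pik3r4, Becn1, Atg14 and Ambra1 did not pass. Ambra1 was lower in every Grn KO library than in the Grn WT libraries of both backgrounds, as were 3.53% of all genes, at an averaged log2 fold change of -0.66 ± 0.28 (adjusted p = 0.11). Becn1, which encodes Beclin 1, had 0.28 ± 0.13 (adjusted p = 0.13) and Atg14 -0.25 ± 0.17 (adjusted p = 0.33).

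The 5 genes of the ATG9, ATG2 and WIPI group and the tethering genes Epg5 and Plekhm1 did not pass in a Grn KO comparison. Atg2a, which encodes a lipid transfer protein, had the smallest p at an averaged log2 fold change of -0.80 ± 0.32 (SE, adjusted p = 0.093), with -1.17 ± 0.46 (adjusted p = 0.093) with Tmem106b HET. Wipi1 had -0.57 ± 0.35 (adjusted p = 0.27) and Atg9a 0.27 ± 0.23 (adjusted p = 0.45). For Plekhm1 the value was -0.43 ± 0.21 (adjusted p = 0.17) and for Epg5 -0.34 ± 0.39 (adjusted p = 0.59). Sqstm1 and Optn were the 2 members whose Grn KO libraries lay above Grn WT without overlap in both backgrounds, as did 2.96% of all genes. In single backgrounds, 6 members lay wholly above with Tmem106b WT (8.78% of all genes) and 2 with Tmem106b HET (9.85%), and 6 and 4 lay wholly below (7.45% and 9.37%).

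**Figure D3:**
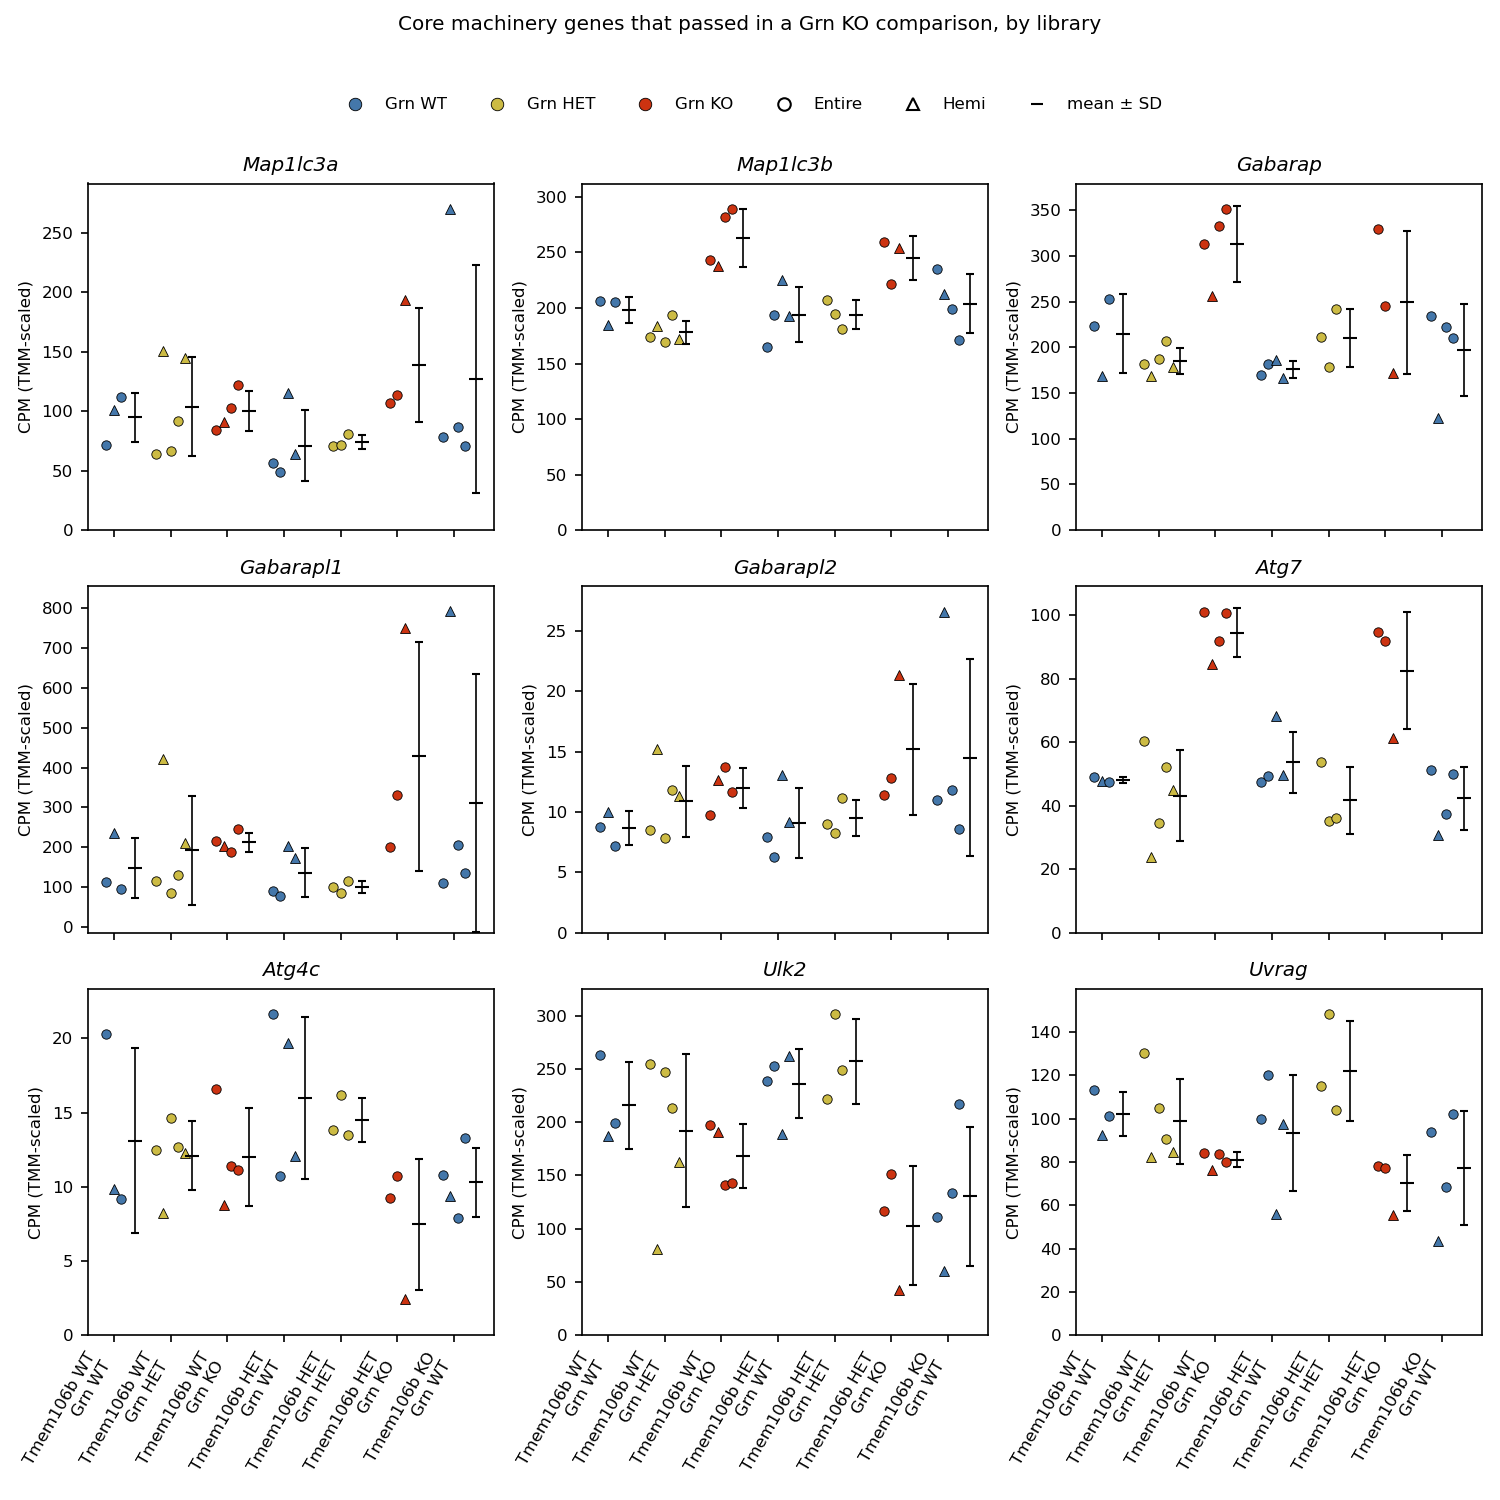
CPM of the 9 core genes that passed in a Grn KO comparison, by library and genotype group, with mean and SD (the SD bar of Gabarapl1 in Tmem106b KO reaches below 0). Atg7 is higher in the Grn KO libraries of Tmem106b WT than in any other library outside Grn KO, and Gabarapl1, Map1lc3a and Gabarapl2 are highest in Tmem106b KO replicate 2.

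The upstream sequences of 4 of the 8 members that rose in the averaged Grn KO comparison are shown, so that motifs of known regulators can be looked for in them. These 4 are a selection and give no share of motifs for the members that rose. The motifs were CACGTG (with its longer form TCACGTGA, which contains it), read by the lysosomal regulators TFEB and TFE3, and TGACNNNGC, read by the stress regulator NRF2. Both strands were searched in the 250 bases before the RefSeq start of 29 members that were in the table used (GRCm38.p6). CACGTG was found in 3 of them (Atg3, Atg5 and Atg7), against 6.02% of 32851 promoters, TCACGTGA in Atg3 (0.785% of promoters), and TGACNNNGC in Atg13, Tax1bp1 and Ulk2 (10.2%). In the sequences, written 5′ to 3′ on the gene's strand without annotated exon bases, capitals mark CACGTG. It lies in Atg7, starting 132 bases before the start, and the letters of the other motifs were not in these windows. A match is a description of the letters and not a bound site. The RefSeq start used for Atg7 lies inside the gene's span in the annotation of the count files' build.
Optn (chr2:5064118-5064367, minus strand): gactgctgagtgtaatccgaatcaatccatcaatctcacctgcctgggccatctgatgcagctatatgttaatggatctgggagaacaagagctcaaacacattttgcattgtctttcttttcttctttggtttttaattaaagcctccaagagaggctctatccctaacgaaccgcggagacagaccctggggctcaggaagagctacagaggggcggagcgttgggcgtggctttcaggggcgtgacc
Sqstm1 (chr11:50210828-50211070, minus strand): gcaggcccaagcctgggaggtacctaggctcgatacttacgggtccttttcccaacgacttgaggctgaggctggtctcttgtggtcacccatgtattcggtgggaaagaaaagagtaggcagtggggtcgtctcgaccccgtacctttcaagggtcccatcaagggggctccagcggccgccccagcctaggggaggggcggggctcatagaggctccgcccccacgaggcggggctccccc
Gabarapl1 (chr6:129532942-129533159, plus strand): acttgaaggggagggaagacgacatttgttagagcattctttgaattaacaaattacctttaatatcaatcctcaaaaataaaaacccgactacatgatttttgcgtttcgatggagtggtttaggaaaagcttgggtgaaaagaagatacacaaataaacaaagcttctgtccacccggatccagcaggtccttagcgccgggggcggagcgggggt
Atg7 (chr6:114670846-114671095, plus strand): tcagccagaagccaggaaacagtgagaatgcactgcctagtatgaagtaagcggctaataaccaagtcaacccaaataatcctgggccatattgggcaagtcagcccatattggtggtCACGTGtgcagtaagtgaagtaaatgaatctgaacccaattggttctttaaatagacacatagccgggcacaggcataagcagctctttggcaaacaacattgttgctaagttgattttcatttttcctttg

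In the 3 libraries with the highest neuron marker sums, 7 members lay above all other libraries of their group in each (Atg13, Atg4b, Atg9a, Gabarapl1, Gabarapl2, Map1lc3a and Rb1cc1) and 6 below (Atg14, Atg7, Gabarap, Ulk2, Uvrag and Wipi1). Of all genes, 14.3% lay above and 14.2% below in the same way, so the members' counts were not far from the background. All 3 libraries were Hemi, and 2 of them were the one Hemi library of their group, so neuron content and dissection cannot be told apart in this comparison. Of the 10 members that passed on average, Gabarapl1, Gabarapl2 and Map1lc3a were higher in these libraries, Ulk2 and Uvrag were lower, and Atg7 and Gabarap, which rose in Grn KO, were lower. Sqstm1 and Optn were above their group in Tmem106b KO replicate 2 (1.65 and 1.82 times the mean of the others). They were also above in Tmem106b WT Grn HET replicate 2 (1.24 and 3.41 times). In Tmem106b HET Grn KO replicate 3 they were below (0.93 and 0.816 times). Map1lc3b was within its group in each library. Neuron marker sums were 126, 1743 and 155 CPM in Tmem106b WT Grn WT and 1091, 724, 680.5 and 1039 in its Grn KO libraries. In the Tmem106b HET background they were 70.7, 98.8, 866 and 1664 CPM in Grn WT and 722, 2827 and 9334 in Grn KO. The summed microglia markers were lower in all 7 Grn KO libraries (9194 to 32624 CPM) than in the 7 Grn WT libraries of these backgrounds (36581 to 55792 CPM), and the part of this difference in the members' values was not tested.

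To set the genotypes side by side within bounds on neuron content, the libraries with neuron marker sums between 500 and 3000 CPM were listed. The range was chosen after the values were seen and given no test. The list comprised 6 Grn KO libraries and 6 libraries of other genotypes. Their neuron marker sums were 680.5, 722, 724, 1039, 1091 and 2827 CPM in Grn KO, and 580.4, 866, 1393, 1522, 1664 and 1743 CPM in the others. Neuron content was thus not matched within the range, and its part in the values was not tested. Sqstm1 ranged from 757 to 1070.4 CPM for Grn KO and from 505 to 667 for the others. Optn had 44.8 to 51.0 CPM against 14.2 to 22.8, Atg7 84.6 to 101 against 37.3 to 68.2, and Gabarap 245 to 351 against 166 to 222. These 4 members did not overlap, where 3.17% of all genes lay wholly above, and 0 members lay wholly below (1.69% of all genes). Gabarapl1 overlapped, with 188 to 332 CPM in Grn KO and 131 to 235 in the others, as did Map1lc3a (83.9 to 122 against 64.4 to 145), Gabarapl2 (9.78 to 13.7 against 9.18 to 13.1), Map1lc3b (222 to 289 against 172 to 225) and Ulk2 (117 to 197 against 134 to 262). Dissection was not even between these sets, with Hemi libraries making up 1 of 6 and 4 of 6. Microglia marker sums also differed, at 22333 to 32624 CPM in these Grn KO libraries and 35385 to 48834 in the others. The range left out Tmem106b HET Grn KO replicate 3, whose Atg7 (61.3 CPM) and Gabarap (172 CPM) lay among the 6 other libraries. Its Sqstm1 (827 CPM) and Optn (39.6 CPM) lay above them.

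**Figure D4:**
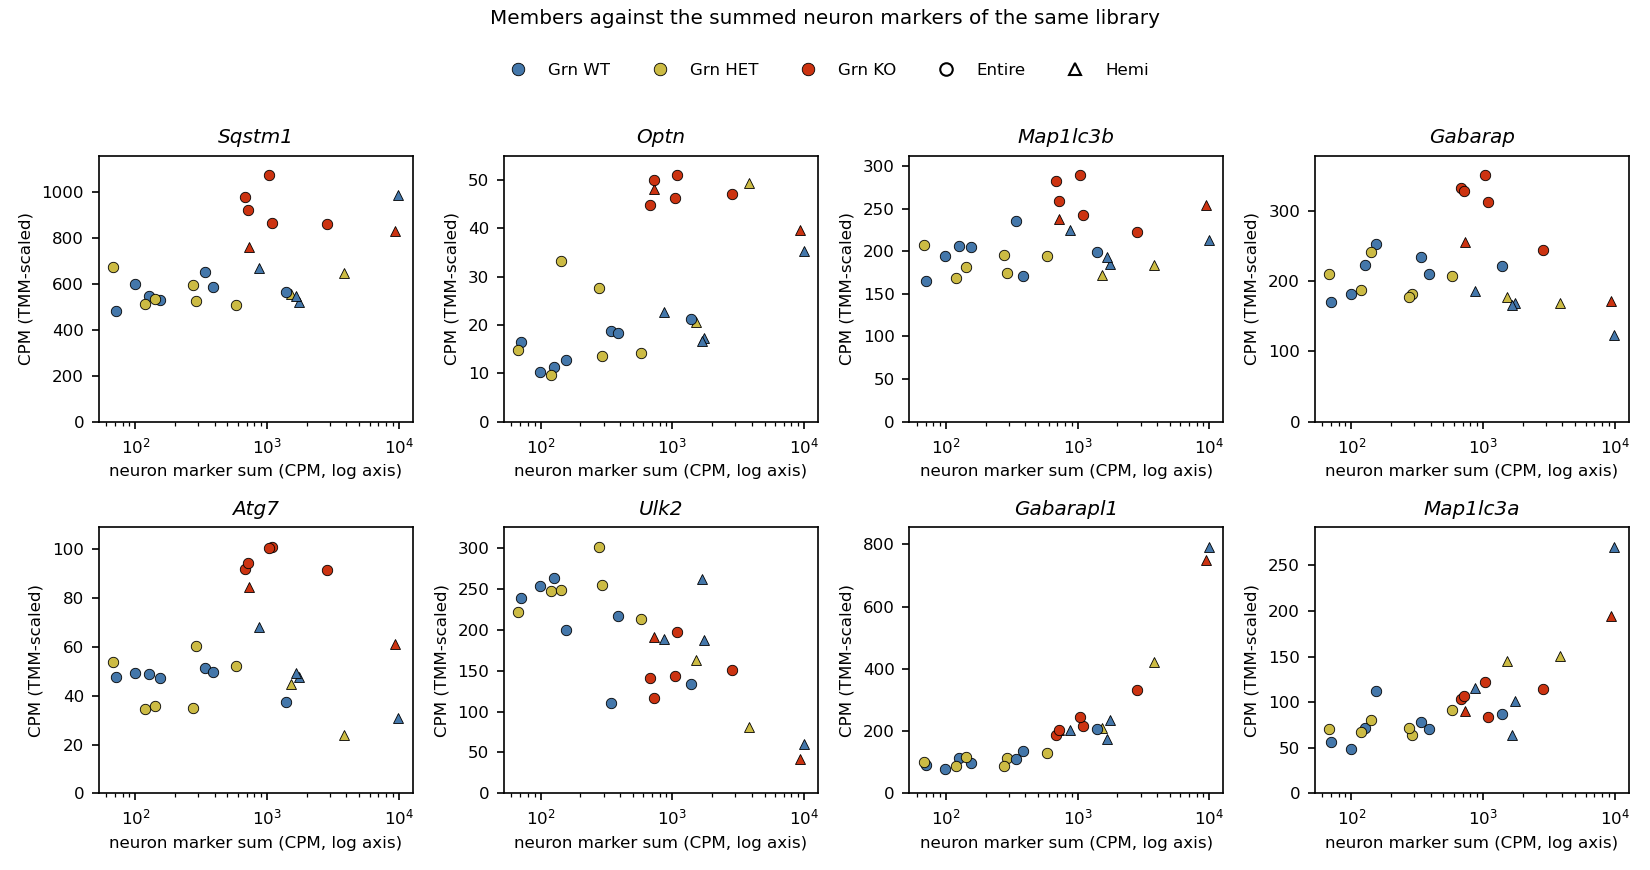
CPM of 8 members against the summed CPM of the 12 neuron markers of the same library (log axis), coloured by Grn genotype, circles Entire and triangles Hemi. Between 500 and 3000 CPM of neuron markers the Grn KO libraries lie above the others for Sqstm1, Optn, Atg7 and Gabarap, while Gabarapl1 and Map1lc3a are highest in the libraries with the most neuron RNA, whichever the genotype.

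With the neuron and oligodendrocyte marker sums as covariates in edgeR, 0 of the 36 members passed in any Grn KO comparison. At an unadjusted p under 0.05 stood 6, 4 and 9 members with Tmem106b WT, with Tmem106b HET and on average. Of the 21371 genes tested, 1876, 1972 and 2580 did so. Of all genes, 0.337%, 0.0234% and 0.576% then passed in either direction, against 0.576%, 14.5% and 18.1% without these covariates. The averaged log2 fold change of Atg7 was then 0.83 ± 0.22 (adjusted p = 0.10), of Gabarap 0.53 ± 0.18 (adjusted p = 0.21), of Sqstm1 0.55 ± 0.19 (adjusted p = 0.24) and of Map1lc3b 0.31 ± 0.15 (adjusted p = 0.41). For Optn it was 1.10 ± 0.35 (adjusted p = 0.18), for Gabarapl1 0.40 ± 0.28 (adjusted p = 0.61), for Gabarapl2 0.33 ± 0.29 (adjusted p = 0.72) and for Map1lc3a 0.21 ± 0.30 (adjusted p = 0.85). These last 4 genes stood further below their values without marker sums than Sqstm1 and Map1lc3b did. Atg7 and Gabarap stood slightly above theirs (0.77 and 0.48). Ulk2 had -0.76 ± 0.34 (adjusted p = 0.39) and Uvrag -0.27 ± 0.20 (adjusted p = 0.66). The 18 Entire libraries alone leave out the 8 Hemi libraries. There 7 members rose and 2 fell on average, against 7.94% and 6.4% of all genes. Gabarapl2 was the one lost (adjusted p = 0.10), and Ulk2 and Atg4c no longer passed with Tmem106b HET (adjusted p 0.068 and 0.33). Among Entire libraries of these backgrounds, neuron marker sums were 70.7 to 155 CPM in Grn WT and 680.5 to 2827 CPM in Grn KO. Genotype and neuron content therefore cannot be told apart in this setting.

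**Figure D5:**
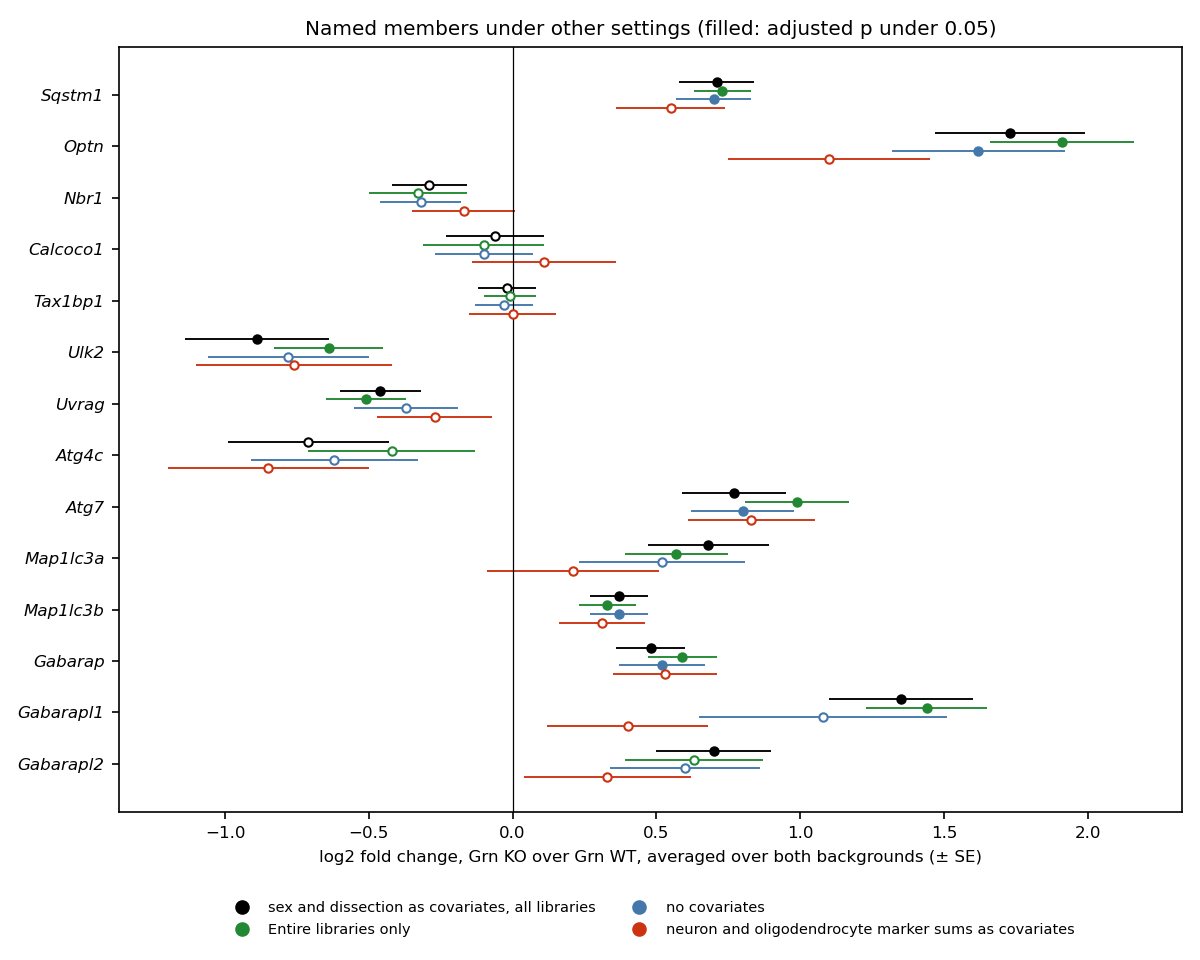
Averaged log2 fold change of Grn KO over Grn WT with its SE for the 5 receptors and the 9 other members that passed in a Grn KO comparison, under 4 settings, filled where the adjusted p was under 0.05. With the marker sums as covariates no point is filled, and Gabarapl1, Gabarapl2, Map1lc3a and Optn move furthest toward 0.

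Heterozygous loss of Grn was compared with Grn WT in both backgrounds. By edgeR 0 of the 36 members passed with Tmem106b WT, as did 0.0% of all genes. At an unadjusted p under 0.05 stood 0 members and 734 of the 21371 genes tested. DESeq2 called 0 members, with 1 member and 1281 genes at an unadjusted p under 0.05. With Tmem106b HET 0 passed against 0.0% of all genes (DESeq2 called 0 members, with 2 members and 2047 genes unadjusted). By edgeR 1183 of the 21371 genes tested were at an unadjusted p under 0.05, and so was 1 member. That member was Optn, at a log2 fold change of 1.01 ± 0.37 (adjusted p = 0.85) with Tmem106b HET, against 0.40 ± 0.37 (adjusted p = 1.0) with Tmem106b WT. Sqstm1 had 0.02 ± 0.18 and 0.15 ± 0.19 in these comparisons (adjusted p 1.0 and 0.91).

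Loss of Tmem106b with Grn WT gave 0 passing members by edgeR, against 0.00468% of all genes in either direction. At an unadjusted p under 0.05 stood 10 members and 2349 of the 21371 genes tested. DESeq2 called 1 of these members lower, against 0.432% of all genes that it called lower. This was Plekhm1, which encodes an adaptor for fusion of autophagosomes with lysosomes. Plekhm1 had a log2 fold change of -1.01 ± 0.29 by edgeR (adjusted p = 0.43). Nbr1 had -0.50 ± 0.19, Sqstm1 0.39 ± 0.18, Optn 0.80 ± 0.35, Ulk2 -0.85 ± 0.34 and Gabarapl1 0.90 ± 0.35 (adjusted p 0.43 to 0.45). The neuron-rich Tmem106b KO replicate 2 stood outside the other 3 libraries of the group for each of these genes. It lay above them for Sqstm1 (984 CPM against 562 to 649), Optn (35.3 against 18.3 to 21.2) and Gabarapl1 (791 against 110.4 to 206). It lay below them for Plekhm1 (16.2 against 22.6 to 41.4), Nbr1 (118 against 126 to 214) and Ulk2 (60.3 against 111 to 217). Without this library the log2 fold changes were 0.18 ± 0.15 for Sqstm1, 0.73 ± 0.39 for Optn, -0.39 ± 0.19 for Nbr1, -0.66 ± 0.36 for Ulk2, 0.48 ± 0.33 for Gabarapl1 and -0.94 ± 0.32 for Plekhm1 (SE, edgeR adjusted p 0.87 to 0.88).

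With heterozygous loss of Tmem106b, by edgeR 0 of 36 members passed with Grn WT, Grn HET or Grn KO, against 0.0% of all genes in each. At an unadjusted p under 0.05 stood 0, 1 and 1 members, and 745, 1451 and 811 of the 21371 genes tested. DESeq2 called 0 members in each. Within Grn KO, Sqstm1 differed by a log2 fold change of -0.09 ± 0.18 and Optn by -0.10 ± 0.35 between Tmem106b HET and WT (adjusted p 0.95 and 0.97). The interaction of Grn KO with Tmem106b HET, which tests whether the Grn KO effect differed between the backgrounds, passed for 0 members and 0.0% of all genes. At an unadjusted p under 0.05 stood 3 members (Ulk2, Atg4c and Map1lc3a) and 917 of the 21371 genes tested, and DESeq2 called 0 members. This interaction was -0.17 ± 0.25 for Sqstm1, -0.20 ± 0.49 for Optn and -1.05 ± 0.49 for Ulk2 on the log2 scale (adjusted p 0.91, 0.95 and 0.87). The interaction of Grn HET with Tmem106b HET passed for 0 members and 0.0% of all genes. By edgeR 1 member and 1196 genes were at an unadjusted p under 0.05, and DESeq2 called 0 members.

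Further genes of the pathway were read from a list of 43, made of 14 other receptors, 18 other machinery genes and 11 kinases and ubiquitin handling genes. With Tmem106b WT 1 rose and 0 fell, with Tmem106b HET 5 rose and 4 fell, and on average 5 rose and 4 fell, with median log2 fold changes of -0.08, -0.03 and -0.04. Over all genes the shares that rose and fell were 0.426% and 0.15%, 8.42% and 6.05%, and 10.7% and 7.38%, and the averaged counts of the list were close to those shares. Tecpr1, which encodes a tether at autolysosomes and damaged lysosomes, rose in each comparison. It stood at 85.6 ± 23.4 CPM (n = 3) in Grn WT and 182 ± 30.6 (n = 4) in Grn KO with Tmem106b WT, and at 95.5 ± 9.39 (n = 4) and 180.2 ± 40.0 (n = 3) with Tmem106b HET, with log2 fold changes of 1.11 ± 0.24 and 0.94 ± 0.23 (SE, edgeR adjusted p 0.03 and 0.011). Among other receptors, Bnip3 and Fundc1 of mitochondria and Rtn3 of the endoplasmic reticulum rose on average, by 1.33 ± 0.25, 0.47 ± 0.13 and 0.51 ± 0.16 (adjusted p 0.0014, 0.014 and 0.034). Rtn3 had 348 ± 67.8 CPM in Grn WT and 358 ± 62.0 in Grn KO with Tmem106b WT, and 284 ± 59.6 and 467 ± 169 with Tmem106b HET. Its highest values (870, 648 and 570.4 CPM) were in the Tmem106b KO, Tmem106b HET Grn KO and Tmem106b WT Grn HET groups, which hold the libraries with the most neuron RNA. Tbk1, the kinase that phosphorylates optineurin and p62, fell by 0.48 on the log2 scale (SE 0.11, adjusted p = 0.0057). Its relative Ikbke had 8.60 ± 1.16 CPM in Grn KO against 0.52 ± 0.473 in Grn WT with Tmem106b WT, with a lowest Grn WT library of 0.0. Ikbke passed on average (edgeR adjusted p = 0.038) but in neither background alone. Ubqln2, a ubiquitin-binding shuttle protein, rose with Tmem106b HET by 1.25 ± 0.37 (adjusted p = 0.03). Tbc1d5, Rubcnl and Ykt6, which act in endosome traffic and autophagosome fusion, fell by 1.16, 1.12 and 0.65 (SE 0.20, 0.20 and 0.13, adjusted p 0.00074, 0.0012 and 0.0022). The calls of these further genes are from the model with sex and dissection as covariates. Their results with other settings are not given here. With marker sums as covariates 0.576% of all genes passed on average and 0.0234% with Tmem106b HET.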

How the data were processed

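RNA was extracted with RNeasy Plus Micro columns and made into libraries with SMART-Seq v4 and Nextera XT, per the labels' protocols. The submitters' processing notes name GSNAP and GRCm38. Which counter and annotation release were used, and whether strand was, is not given in the sources used here. The deposited files hold raw exonic counts per Ensembl gene. They also hold RPKM values that the authors computed from gene width in bases (the other deposited column used) and a library total, of which the counts made up 79.9 to 86.4%.

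Symbols came from the GENCODE annotation of GRCm38, which matched 52489 of 52636 identifiers. Counts were analysed in edgeR 4.0.16 (R 4.3.3) with filterByExpr (21371 genes kept), TMM scaling, robust quasi-likelihood tests, genotype groups with sex and dissection as covariates over all 26 libraries, and Benjamini-Hochberg adjustment at 0.05. The 8 pairwise comparisons, the averaged Grn KO comparison and 2 interactions were contrasts of this model, and an SE is the log2 fold change over the square root of its F. CPM values are scaled by TMM, and marker sums are CPM of the library total. Samples were grouped by genotype labels, and replicate numbers are only names. Alternatives used DESeq2 1.42.0, limma 3.58.1, other filters, scalings and covariates, and each library left out. The model was tested on simulated data. Promoter sequences are RefSeq's (GRCm38.p6), and none was printed for members outside that table. Tables and plots used Python 3.11.15, pandas 2.3.3 and matplotlib 3.10.9.

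The members and the gene lists were chosen with earlier results of these data known. Values in every library are given for the receptors and for each other member that passed in a Grn KO comparison. The other members are named up to 3 per role by smallest p, and the further autophagy genes up to 4 per list.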

Additional observations from a re-analysis of the deposited data

Results flagged for a closer look

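Single libraries that stood far from the rest of their group were looked for with Dixon's criterion in the 14 members given in every library and the groups of 4 or 5 libraries, 56 tests in all, of which chance alone would mark about 1 in 20. It marked 4. Optn stood at 49.5 CPM in Tmem106b WT Grn HET replicate 2, against 9.76 to 20.6 in the other libraries of the group. Atg7 stood at 68.2 CPM in Tmem106b HET Grn WT replicate 3, against 47.6 to 49.5. Map1lc3a stood at 270.0 CPM in Tmem106b KO replicate 2, against 70.9 to 87.1, and Gabarapl1 at 791 CPM in the same library, against 110.4 to 206. Tmem106b KO replicate 2 and Tmem106b WT Grn HET replicate 2 were 2 of the 3 libraries with the highest neuron marker sums (9929 and 3816 CPM), and Tmem106b HET Grn WT replicate 3 had 866 CPM. That library had the highest oligodendrocyte (25624 CPM), astrocyte (1325), endothelial (547) and erythrocyte (438) marker sums of the 26.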

How the results depend on the processing

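The counts of members that passed depended on the covariates and the tool. With Tmem106b WT, where 1 passed, DESeq2 called 5, and limma-voom, a filter of 1 CPM in 3 libraries, dissection as the only covariate, the Entire libraries alone and the newer form of the edgeR fit (added after seeing the data) called 2 each. With no covariates, with sex as the only covariate and with marker sums as covariates 0 passed there. With Tmem106b HET, where 7 passed, these 3 settings also gave 0, and on average, where 10 passed, they gave 5, 4 and 0. For Tmem106b KO DESeq2 called 1. Leaving out 1 library gave 0 to 2 with Tmem106b WT, 3 to 6 with Tmem106b HET and 5 to 10 on average, and 0 in the other comparisons. Over all genes, DESeq2 called 905 higher and 265 lower with Tmem106b WT against 91 and 32 by edgeR, and 3191 and 2073 with Tmem106b HET against 1799 and 1294. With no covariates the counts were 50 and 8, 154 and 70, and on average 583 and 514 against 2285 and 1578. The cause was not tested. Sqstm1 and Optn kept their sign in all Grn KO comparisons and alternatives.

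Among the members given in every library, signs turned in Grn KO comparisons for 4 that had not passed in the comparison concerned. Signs of the remaining members under other settings are not given here. Calcoco1 (0.00 with Tmem106b WT on the log2 scale) had -0.01 with the filter of 1 CPM, -0.07 with no covariates, -0.01 with sex only and -0.08 with dissection only, and -0.14 to 0.15 with 1 library left out. With Tmem106b HET it had 0.10 with marker sums and -0.22 to 0.00 with a library left out, and on average 0.11 and -0.11 to 0.04. Tax1bp1 had 0.03 (Tmem106b WT) and -0.05 (Tmem106b HET) in the Entire libraries alone, and on average 0.03 by RLE scaling, 0.03 by DESeq2 and 0.00 with marker sums. With 1 library left out it ranged from -0.09 to 0.02, from -0.04 to 0.09 and, on average, from -0.05 to 0.03. Map1lc3a with Tmem106b WT had -0.08 with marker sums and -0.02 (without Tmem106b WT Grn WT replicate 2) to 0.55 with a library left out, and Atg4c -0.36 to 0.20 (without Tmem106b WT Grn WT replicate 1).

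No paired analysis was possible because the labels give no replicate numbers that groups share. Groups of 3 to 5 libraries limit the precision, and in Tmem106b HET Grn WT and Grn KO sex and dissection cannot be told apart, since females were Entire and males Hemi.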
